A study of Mus musculus with 26 samples.

Results

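Brown preadipocytes that carry human insulin receptor (IR) were compared with the same kind of cells without it, both in the absence of insulin. The comparison covered 6 of the 26 RNA sequencing libraries of the study, 3 of IR cells and 3 of DKO cells. It used the 15402 of 52962 genes with more than 0.5 CPM (counts scaled to a common library size) in at least 4 of the 26 libraries. All cells came from preadipocytes of the brown fat pad of newborn mice homozygous for floxed *Insr* and *Igf1r* alleles (IR-lox/IGF1R-lox), immortalized with a retrovirus for SV40 T-antigen under puromycin. An adenovirus with GFP-tagged Cre recombinase removed both receptors, and GFP-positive cells were sorted to give the double knockout (DKO) line. IR cells are DKO cells that received a pBabe retrovirus for FLAG-tagged human IR, the B isoform, under hygromycin, and DKO cells have no receptor construct. Both were starved of serum for 6 h and harvested with no insulin added. The other 3 receptor lines, used here to place these differences, carry human IR with a kinase-dead point mutation (K1030R), without the C-terminus (∆CT), or with the juxtamembrane stretch as the only intracellular part (JMO). The labels do not say whether the sequenced DKO cells had received the empty vector under hygromycin, which the study also made, so that retrovirus and selection may differ between the groups too. The replicates are separate samples of 1 line, so the p-values measure only the spread between these samples, which may be technical. The receptor and any other difference between the lines cannot be told apart.

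IR and the closely related IGF1 receptor are receptor tyrosine kinases of the plasma membrane. Insulin binding activates the kinase, which phosphorylates IRS and Shc proteins and drives the PI3K-Akt and Ras-MAP kinase pathways; in fat cells and their precursors these pathways control glucose uptake, lipid synthesis, growth, and differentiation. The comparison asks how cells with and without the receptor differ before any ligand is given.

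The 6 libraries held 17535582 to 24694828 counts, where a CPM of 0.5 is about 10 counts. In the fit to all 26 libraries in 9 groups, the samples of a group varied with a common biological coefficient of variation of 4.44%. Along the first principal component, which held 63.8% of the variance of the 6 libraries, DKO lay between -37.8 and -33.9 and IR between 34.9 and 37.7. IR replicate 3 stood apart on the second component (10.6% of the variance) at 27.5, against -14.3 and -12.4 for the other IR libraries.

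The targeted genes were examined first. *Insr* (ENSMUSG00000005534) had 24.3, 24.8, and 22.3 CPM in DKO and 65.9, 67.8, and 69.3 CPM in IR libraries. It was 2.85-fold higher in IR cells (log2 fold change 1.51 ± 0.05, SE, adjusted p = 1.2e-22, quasi-likelihood test of edgeR and Benjamini-Hochberg over all tested genes, as for every single gene here). *Igf1r* (ENSMUSG00000005533) had 27.9, 24.7, and 28.6 CPM in DKO and 35.7, 35.3, and 34.4 CPM in IR libraries, 1.29-fold higher (log2 0.37 ± 0.05, adjusted p = 4.3e-07). Counts are summed over the whole gene and the reads were assigned to mouse transcripts, so they cannot check the deletion: they neither resolve the floxed exons nor separate human from mouse receptor RNA, and transcripts of both genes were counted in DKO cells. Below, log2 stands for the log2 fold change of IR over DKO with its SE, and a pair of CPM values gives the DKO mean and then the IR mean of 3 libraries.

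Across all tested genes, 554 were higher and 507 lower in IR than in DKO cells when edgeR tested for a fold above 1.5 (adjusted p threshold 0.05), which is 6.89% of the genes (3.6% higher and 3.29% lower). With no minimum fold, 3947 were higher and 3718 lower, 49.8% of the genes (25.6% and 24.1%). Counts of list members are read below against these shares. The median log2 fold change over all tested genes was 0.01. Among the tested members of the gene lists, all 10 fibrillar collagen genes were higher in IR cells with no minimum fold. So were 24 of 28 ATF4 target and amino acid transporter genes. Lower were 50 of 56 interferon-stimulated effectors, 18 of 20 MHC class I genes, 13 of 18 complement and acute phase genes, and 25 of 39 immediate early genes. Of the 1061 genes past the minimum fold, 954 are protein coding, 435 of the higher and 395 of the lower ones differed by more than 2-fold, and 43 and 55 by more than 8-fold. The 3 IR values lay apart from the 3 DKO values for all 554 higher genes and for 506 of the 507 lower ones. Over all tested genes they lay apart for 8462 of 15402, and the genes past the minimum fold were chosen on these same values. Without IR replicate 3, which stood apart, 542 were higher and 469 lower.

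**Figure D1:**
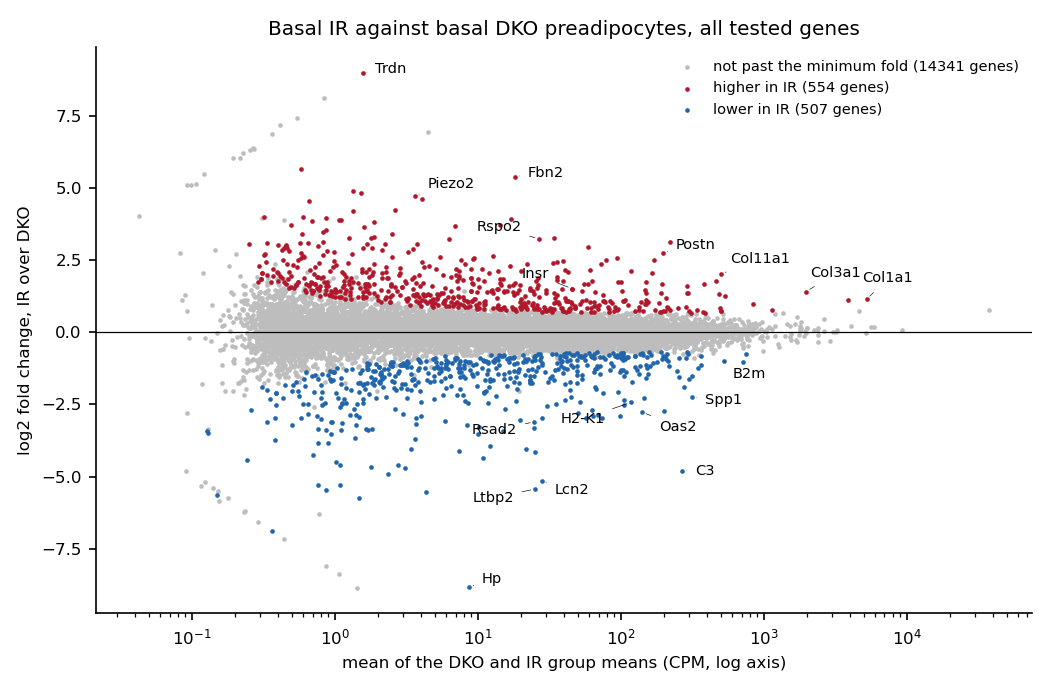
Each point is 1 of the 15402 tested genes, with the mean of its DKO and IR group means in CPM on a log axis and the log2 fold change of IR over DKO on the vertical axis. Genes past the 1.5-fold minimum are red (554 higher) or blue (507 lower); *Hp*, *C3*, and *Lcn2* lie far below zero, *Fbn2* and *Trdn* far above it, and the abundant collagen genes *Col1a1* and *Col3a1* lie above zero at the right.

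Markers of preadipocytes were present in both lines, and those of the brown lineage only in part. Of 13 preadipocyte and fibroblast markers 11 were tested, with *Vim* from 1488 to 1799 CPM and *Pdgfra*, a receptor of mesenchymal precursors, from 164 to 278 CPM, while *Dpp4* and *Dlk1* did not pass the filter. Among the surface markers, *Cd34* (from 3.45 to 12.3 CPM, log2 1.81 ± 0.11) and *Thy1* (from 6.62 to 21.8 CPM, log2 1.72 ± 0.08) were higher in IR cells. *Ly6a*, the gene of Sca-1, was lower, with 42.9, 49.2, and 42.6 CPM in DKO and 3.76, 5.81, and 3.95 CPM in IR libraries, a 10.1-fold difference. *Ucp1*, *Adipoq*, *Lep*, and *Cidec*, which mark mature brown or white fat cells, had 0 counts in all 6 libraries, while *Zic1*, a transcription factor of brown fat precursors, went from 121 to 140.1 CPM. Of other factors in the adipocyte and brown fat list, *Tbx15* had means of 24.6 and 24.5 CPM and *Ebf1* of 83.9 and 75.1 CPM. Not past the filter were *Ebf2* with 23 counts over the 6 libraries, *Zfp423* with 16, *Prdm16* with 7, and *Lhx8* with 5. Of 38 adipocyte and brown fat genes 21 were tested, of which 9 were higher and 9 lower with no minimum fold, and 5 and 4 past a minimum fold of 1.5 (counts of other lists are given in the same order below). Those that rose included *Zfp521* (from 28.6 to 77.9 CPM, log2 1.44 ± 0.06), *Gata2* (from 4.06 to 9.28 CPM, log2 1.20 ± 0.12), and *Apoe* (from 1.99 to 4.48 CPM, log2 1.16 ± 0.18). *Ppargc1a*, a coactivator of mitochondrial genes, rose from 5.78 to 12.4 CPM (log2 1.09 ± 0.10). *Fabp4*, a fatty acid binding protein of fat cells, fell from 2.48 to 0.729 CPM (log2 -1.79 ± 0.25). The adipogenic factors *Pparg* (from 4.56 to 2.76 CPM, log2 -0.73), *Cebpb* (log2 -0.68), and *Cebpd* (log2 -0.80) fell, none past the minimum fold. Their relative *Cebpa* (log2 0.10) was not called. *Wnt10b* fell from 12.3 to 4.12 CPM (log2 -1.58 ± 0.13), as did *Ccn5* (from 59.4 to 24.4 CPM, log2 -1.28 ± 0.06) and *Plin4* (from 49.4 to 26.2 CPM, log2 -0.92 ± 0.08). Of the markers of other cell types, *Adgre1*, *Fcgr1*, *Cldn5*, *Krt5*, *Krt14*, *Sox10*, *Myod1*, and *Pax7* had no count in any of the 6 libraries. Of 10 macrophage markers 4 were tested and all 4 were lower in IR cells, none past the 1.5-fold minimum, with a summed level of 29.6 to 32.8 CPM in the DKO and 18.6 to 19.2 CPM in the IR libraries. *Cd14* fell from 15.8 to 9.59 CPM and *Lyz2* from 11.5 to 6.82 CPM, and *Ptprc*, the pan-leukocyte gene, had 18 counts over the 6 libraries. Of 8 endothelial markers 3 were tested, 1 higher and 0 lower, with *Pecam1* at 11.3 and 10.7 CPM and *Egfl7* rising from 3.66 to 5.55 CPM. Of 37 skeletal muscle genes 9 were tested, 6 higher and 0 lower. Their summed level was 22.2 to 27.0 CPM in DKO and 39.2 to 42.0 CPM in IR libraries. *Neb*, the giant thin filament protein, rose from 1.33 to 3.92 CPM (log2 1.56 ± 0.20) and *Tnnc1* from 0.524 to 1.3 CPM (log2 1.28 ± 0.27). The myosin genes *Myh2*, *Myh4*, and *Myl1* had 0 counts. The part of such cells in the results below was not tested. In bulk RNA, fewer cells of a type and less RNA per cell cannot be told apart.

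The steepest changes went in both directions. *Fbn2*, which encodes a microfibril protein of the extracellular matrix, had 0.870, 0.966, and 0.721 CPM in DKO and 36.0, 35.1, and 35.9 CPM in IR libraries, a 42.3-fold rise (log2 5.4 ± 0.11, adjusted p = 6.0e-29). *Piezo2*, a mechanically gated ion channel, rose from 0.254 to 7.02 CPM (log2 4.71 ± 0.24). The carbonic anhydrase genes *Car2* and *Car3* rose from 0.325 to 7.77 CPM (log2 4.61 ± 0.30) and from 0.263 to 5.03 CPM (log2 4.22 ± 0.29). *Flrt3*, a membrane protein with leucine-rich repeats, rose from 2.08 to 31.9 CPM (log2 3.92 ± 0.14). *Enpep*, *Hmcn1*, and *Adh1* were at or below 0.143 CPM in DKO cells and at 2.61, 2.98, and 2.53 CPM in IR cells. *Trdn*, which encodes triadin of the calcium release complex of muscle, had 0 counts in each DKO library and 79, 51, and 66 in the IR libraries, at least 63.8-fold higher when 3 counts are taken as the floor over the DKO group. In the other direction, *Hp*, the gene of haptoglobin, had 1062 counts over the DKO libraries and 2 over the IR libraries, a ratio of 541 (exact 95% counting interval 149 to 4469.8, which covers counting error only). *Ltbp2*, which encodes a latent TGF-beta binding protein, had 49.1, 48.8, and 49.2 CPM in DKO and 1.15, 1.14, and 1.09 CPM in IR libraries (log2 -5.44 ± 0.10, adjusted p = 8.4e-31). *Lcn2*, the gene of lipocalin 2, had 55.2, 55.6, and 53.7 CPM in DKO and 1.84, 1.47, and 1.24 CPM in IR libraries (log2 -5.16 ± 0.09, adjusted p = 1.5e-31). *Sfrp1*, a secreted Wnt antagonist, and *Slpi*, a protease inhibitor, fell from 3.46 to 0.130 CPM (log2 -4.68 ± 0.35) and from 5.98 to 0.216 CPM (log2 -4.69 ± 0.28). *Slfn2* (log2 -5.54 ± 0.41), *Prl2c2*, *Ism1*, and the transcribed pseudogene *Gm8995* (log2 -4.91 ± 0.38) were at 0.168 CPM or less in IR cells, and *Slfn2*, *Prl2c2*, and *Gm8995* belong to families of near-identical genes whose reads may be shared.

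*Col1a1* had the largest rise in CPM of all genes past the minimum fold, with 3161, 3212, and 3420.1 CPM in DKO and 7653, 7356, and 6746 CPM in IR libraries. *C3* had the largest fall, with 507, 504, and 547 CPM in DKO and 16.7, 17.8, and 21.7 CPM in IR libraries.

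**Figure D2:**
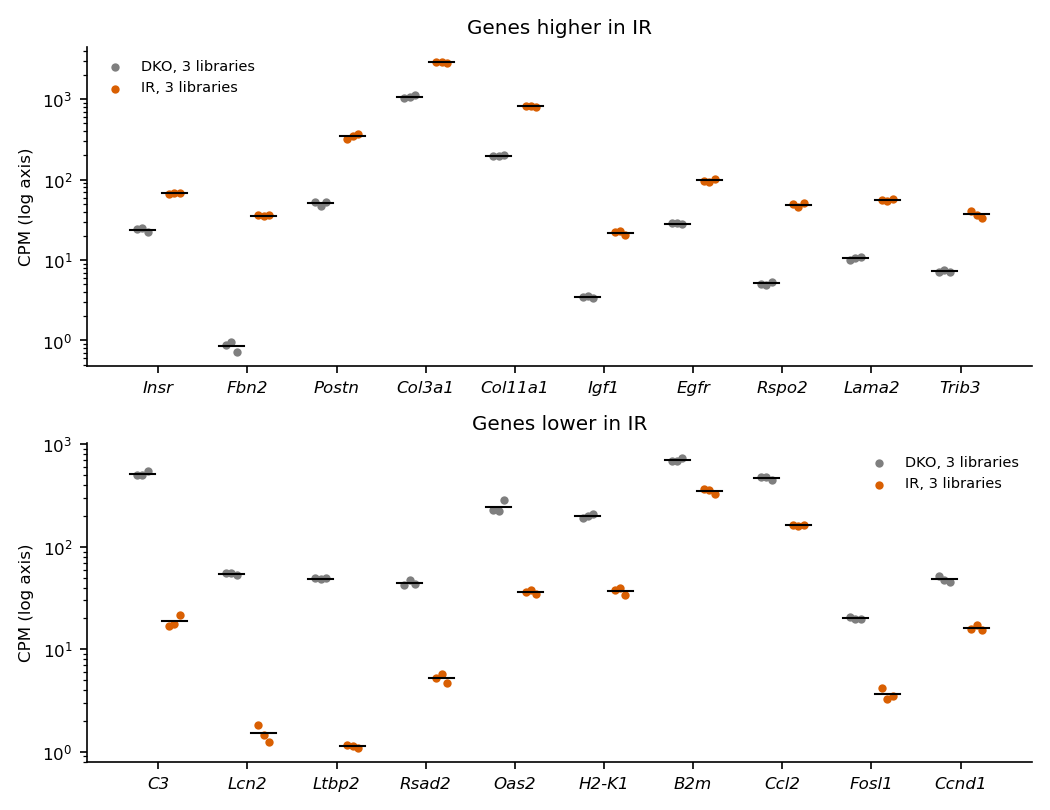
CPM of 20 genes on a log axis, 10 higher and 10 lower in IR cells, with 1 point for each of the 3 DKO (grey) and 3 IR (orange) libraries and a bar at the group mean. The genes were chosen from those past the minimum fold in these same libraries, and the 2 sets of points do not overlap for any of them. Over all tested genes they do not overlap for 8462 of 15402. Among the 20 genes *Fbn2* and *Ltbp2* differ most and *B2m* least.

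Genes of insulin signalling itself showed no common direction. Of 46 tested, 14 were higher and 13 lower, 3 and 0 past the minimum fold, with a median log2 of -0.03. Past the minimum were *Insr*, *Trib3*, a pseudokinase that binds Akt (from 7.23 to 37.0 CPM, log2 2.36 ± 0.09), and *Grb10*, an adaptor that inhibits the receptor (from 127 to 291 CPM, log2 1.20 ± 0.03, adjusted p = 3.3e-26). *Irs1*, the main docking protein of the receptor, rose by less, from 229 to 362 CPM (log2 0.66 ± 0.04), and *Gsk3b* from 289 to 353 CPM (log2 0.29 ± 0.03). *Foxo3*, a transcription factor held back by Akt, and *Mtor* fell from 102 to 85.9 CPM (log2 -0.25 ± 0.04) and from 92.8 to 78.2 CPM (log2 -0.25 ± 0.04). *Sh2b3*, an adaptor, fell from 88.7 to 72.4 CPM (log2 -0.29 ± 0.04).

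The IGF system moved more. Of 11 genes tested, 4 were higher and 3 lower past the minimum fold. *Igf1*, a ligand of the IGF1 receptor, had 3.42, 3.58, and 3.40 CPM in DKO and 22.1, 23, and 20.7 CPM in IR libraries, 6.32-fold higher (log2 2.66 ± 0.11, adjusted p = 4.6e-21). *Igf2r*, the receptor that clears IGF2, rose from 17.7 to 60.8 CPM (log2 1.78 ± 0.06), and the binding protein gene *Igfbp4* from 2.25 to 12.9 CPM (log2 2.52 ± 0.14). *Pappa2*, a protease that cleaves IGF binding proteins, rose from 11.2 to 61.1 CPM (log2 2.45 ± 0.06). *Igfbp7* fell from 224 to 75.2 CPM (log2 -1.57 ± 0.05), *Pappa*, the related protease, from 3.02 to 1.17 CPM (log2 -1.36 ± 0.21), and *Igf2* from 0.717 to 0.145 CPM (log2 -2.26 ± 0.59). Among 32 receptor tyrosine kinases tested, 16 were higher and 8 lower, 6 and 0 past the minimum fold. *Egfr*, the receptor of epidermal growth factor, had 28.8, 28.7, and 27.9 CPM in DKO and 95.5, 94.7, and 103 CPM in IR libraries (log2 1.78 ± 0.04, adjusted p = 2.7e-27). *Mertk*, a receptor for remnants of dead cells, and *Ror1*, a receptor of Wnt5a, rose from 3.88 to 14.1 CPM (log2 1.87 ± 0.11) and from 0.365 to 2.78 CPM (log2 2.92 ± 0.25). *Csf1r*, the receptor of macrophage colony stimulating factor, fell the most, from 0.830 to 0.333 CPM (log2 -1.31 ± 0.37), but not past the minimum fold, and *Flt1* and *Erbb3* fell by less (log2 -0.70 ± 0.09 and -0.67 ± 0.13).

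Immediate early genes, which growth factors induce through MAP kinase and SRF within minutes, were mostly lower in IR cells. Of 39 tested, 2 were higher and 25 lower, 0 and 11 past the minimum fold, and the median log2 was -0.43 against 0.01 over all genes. The summed level of the list overlapped between the lines, with 2582, 2339, and 1903 CPM in DKO and 2015, 1893, and 1970 CPM in IR libraries. *Fosl1*, a subunit of AP-1, had 20.4, 19.9, and 19.8 CPM in DKO and 4.14, 3.26, and 3.51 CPM in IR libraries (log2 -2.45 ± 0.14, adjusted p = 1.0e-14). *Dusp6* and *Dusp4*, phosphatases of MAP kinases that ERK activity induces, fell from 29.9 to 8.84 CPM (log2 -1.76 ± 0.10) and from 18.6 to 5.72 CPM (log2 -1.69 ± 0.10). *Ccn2*, a target of YAP and TGF-beta, fell from 76.7 to 22.7 CPM (log2 -1.75 ± 0.09). Not called in either direction were 12 members, including the most expressed of the list, *Klf10* (from 833 to 942 CPM, log2 0.18). Among them were *Fos* (from 4.12 to 4.37 CPM, log2 0.08), *Egr1* (from 107 to 109 CPM, log2 0.03), *Nr4a1* (log2 -0.08), and *Atf3* (log2 0.20). The 2 members that were higher were *Fosb* (log2 0.54 ± 0.17) and *Ier2* (log2 0.35 ± 0.13), and these calls were lost without DKO replicate 1 or IR replicate 2 (*Fosb*) and without any 1 DKO library or IR replicate 1 (*Ier2*). *Ankrd1*, a target of SRF and YAP, fell from 71.7 to 27.9 CPM (log2 -1.36 ± 0.10).

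Of 30 proliferation genes tested, 4 were higher and 21 lower, 0 and 1 past the minimum fold, with a median log2 of -0.22. These are RNA levels of serum-starved cells and do not measure growth. In the paper's own proliferation assay, IR and ∆CT cells grew fastest and DKO and JMO cells slowest. *Rrm2*, a subunit of ribonucleotide reductase, fell from 139 to 74.0 CPM (log2 -0.91 ± 0.04), and *Ccne1* from 21.7 to 12.8 CPM (log2 -0.75 ± 0.08). *Cdk1* fell from 211 to 146 CPM (log2 -0.53 ± 0.04) and *Top2a* from 549 to 421 CPM (log2 -0.38 ± 0.04). The 4 members that rose were subunits of the replicative helicase, *Mcm5* the most (log2 0.27 ± 0.04), with *Mcm2*, *Mcm3*, and *Mcm4*. Of 14 genes of D cyclins, their kinases, CDK inhibitors, and the RB family, 6 were higher and 6 lower, 0 and 3 past the minimum fold. *Ccnd1*, the cyclin D1 gene that mitogens induce, had 52.0, 47.6, and 45.5 CPM in DKO and 15.6, 17.1, and 15.5 CPM in IR libraries, 3.02-fold lower (log2 -1.59 ± 0.15, adjusted p = 7.6e-08). *Ccnd2* (log2 -1.01 ± 0.12) and *Cdk6* (log2 -0.85 ± 0.04) fell as well, and the inhibitors *Cdkn1b* and *Cdkn2a* rose from 159 to 229 CPM (log2 0.53 ± 0.03) and from 336 to 478 CPM (log2 0.51 ± 0.07). Among 34 regulators of cell death, 15 were higher and 9 lower, 1 and 2 past the minimum fold. *Bcl2l11*, which encodes the pro-apoptotic protein Bim, rose from 31.8 to 56.6 CPM (log2 0.84 ± 0.05), *Bmf* from 15.0 to 25 CPM (log2 0.73 ± 0.08), and *Bcl2*, which opposes them, fell from 27.3 to 17.2 CPM (log2 -0.66 ± 0.07). Other pro-apoptotic relatives of *Bcl2* went both ways. *Pmaip1* fell from 5.28 to 1.67 CPM (log2 -1.66), past the minimum fold, and *Bid* from 72.9 to 50.2 CPM (log2 -0.54). *Bad* (log2 0.32) and *Bbc3* (log2 0.37) rose, and *Bax*, *Bak1*, and *Bok* did not pass the threshold. The inflammatory caspase gene *Casp4* fell from 26.9 to 4.31 CPM (log2 -2.65 ± 0.10).

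Genes that interferons induce made up the list with the most lower genes. Of 56 interferon-stimulated effectors tested, 1 was higher and 50 lower, 0 and 21 past the minimum fold. The median log2 was -0.69, and the summed level of the list was 9374 CPM in DKO and 5308 CPM in IR cells. *Rsad2*, which encodes the antiviral enzyme viperin, had 42.6, 47.5, and 43.7 CPM in DKO and 5.21, 5.76, and 4.64 CPM in IR libraries (log2 -3.10 ± 0.09, adjusted p = 2.2e-24). *Oas2*, a sensor enzyme that activates RNase L, had 228, 226, and 285 CPM in DKO and 36.6, 37.7, and 34.9 CPM in IR libraries (log2 -2.76 ± 0.20, adjusted p = 1.7e-09). Its relatives *Oas3* and *Oas1g* fell from 88.0 to 12.7 CPM (log2 -2.79 ± 0.16) and from 60.2 to 10.7 CPM (log2 -2.49 ± 0.13), and *Iigp1*, a GTPase directed against vacuolar parasites, from 436 to 117 CPM (log2 -1.90 ± 0.16). *Ifit1* fell from 549.5 to 334 CPM (log2 -0.72 ± 0.17), and *Ifit1bl1* was the 1 member that rose (log2 0.55 ± 0.16). OAS genes lie in a cluster of close copies, and their reads may be shared.

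Of 16 interferon receptor, STAT, and IRF genes, 1 was higher and 11 lower, 0 and 1 past the minimum fold. *Irf7*, which is itself interferon-induced, fell from 148 to 59.9 CPM (log2 -1.30 ± 0.16) and *Stat2* from 444 to 259 CPM (log2 -0.78 ± 0.11). *Ifnar1*, a chain of the type I receptor, rose (log2 0.16 ± 0.03). Of 19 nucleic acid sensors 16 were lower and 0 higher, 6 past the minimum. *Zbp1*, a sensor of Z-form nucleic acid, fell from 35.4 to 4.29 CPM (log2 -3.05 ± 0.18) and *Ifi205* from 31.1 to 6.06 CPM (log2 -2.36 ± 0.09). Of 20 genes of antigen presentation by MHC class I 18 were lower and 0 higher, 12 past the minimum, with a median log2 of -0.90. *H2-K1*, a classical heavy chain, had 190.1, 198, and 208 CPM in DKO and 37.9, 39.3, and 33.9 CPM in IR libraries (log2 -2.43 ± 0.06, adjusted p = 3.0e-22). *H2-D1*, the other, fell from 455 to 147 CPM (log2 -1.63 ± 0.06). *B2m*, their common light chain, had 682, 691, and 745 CPM in DKO and 369, 358, and 331 CPM in IR libraries (log2 -1.0 ± 0.04, adjusted p = 1.6e-18). *Psmb8*, a subunit of the immunoproteasome, fell from 3.96 to 1.20 CPM (log2 -1.73 ± 0.26), and the loading factor *Tapbp* from 438 to 351 CPM (log2 -0.32 ± 0.07).

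The interferon-stimulated response element (ISRE), which interferon-activated factors bind, was searched on both strands as GAAA, 2 bases of any kind, and GAAA again, in RefSeq promoters of GRCm38.p6, from 250 bases before to 50 bases after the start. Of the tested genes 10829 had a promoter, and 3.79% of them held the motif. It was in 25 of the 41 interferon-stimulated effectors with a promoter (61.0%), in 5 of 15 sensors and 5 of 17 MHC class I genes. It was in 45 of 347 genes lower past the minimum fold (13.0%), and in 18 of 376 genes higher past it (4.79%). Within the lists a match and a fall did not always go together. *Oas1c* (log2 0.10) and *Ifit1bl1* (log2 0.55) held a match, and *H2-K1* (log2 -2.43) and *Aim2* (log2 -2.06) held none in this window. Stretches of 80 bases around the match in the promoters of *Rsad2*, *Oas3*, and *Oas1g* are printed 5′ to 3′ on the gene's strand with each match in capitals, together with *Isg15*, chosen after its sequence was seen because it holds 3 overlapping matches. A match on the other strand, as in *Rsad2*, reads TTTC at both ends.
Rsad2, chr12:26456528-26456607, minus strand: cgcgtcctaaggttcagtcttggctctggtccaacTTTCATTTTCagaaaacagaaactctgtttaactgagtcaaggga
Oas3, chr5:120777690-120777769, minus strand: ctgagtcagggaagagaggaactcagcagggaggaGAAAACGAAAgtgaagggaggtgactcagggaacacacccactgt
Oas1g, chr5:120887614-120887693, minus strand: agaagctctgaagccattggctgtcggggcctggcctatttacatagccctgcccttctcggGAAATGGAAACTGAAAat
Isg15, chr4:156200840-156200919, minus strand: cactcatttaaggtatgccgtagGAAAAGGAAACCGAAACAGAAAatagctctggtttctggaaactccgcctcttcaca
The matches begin 120, 75, and 18 bases before the annotated start in *Rsad2*, *Oas3*, and *Oas1g*, where *Oas1g* holds 2 overlapping matches. A match is a description of these letters, and no binding was measured.

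Of all lists, complement and acute phase genes had the lowest median. Of 18 tested, 2 were higher and 13 lower, 1 and 11 past the minimum fold, and the median log2 was -1.63. *C3*, the central complement component, went from 519 ± 24.2 to 18.7 ± 2.64 CPM (SD, n = 3 each; log2 -4.80 ± 0.13, adjusted p = 4.4e-16). *Orm1*, an acute phase glycoprotein, fell from 1.95 to 0.0773 CPM (log2 -4.50 ± 0.47), and *C1ra*, a protease of the classical pathway, from 182 to 106 CPM (log2 -0.78 ± 0.04). *Clu*, the clusterin gene, rose from 1.44 to 3.43 CPM (log2 1.21 ± 0.18). Of 30 cytokine and chemokine genes tested, 5 were higher and 17 lower, 1 and 11 past the minimum fold. *Ccl2*, a monocyte attractant, had 480.1, 478, and 451 CPM in DKO and 164, 161, and 163 CPM in IR libraries (log2 -1.53 ± 0.07, adjusted p = 1.4e-12). Its neighbour *Ccl7* and the neutrophil attractant *Cxcl5* fell from 154 to 36.6 CPM (log2 -2.06 ± 0.09) and from 122 to 28.3 CPM (log2 -2.10 ± 0.08). *Il6* fell from 2.48 to 0.343 CPM (log2 -2.85 ± 0.30) and *Il1rl1*, the receptor of interleukin 33, from 123 to 16.8 CPM (log2 -2.87 ± 0.16). *Il18* (log2 0.82 ± 0.09) and *Cx3cl1* (log2 0.63 ± 0.05) rose, and *Cxcl12*, at the highest CPM of the list, fell by little (log2 -0.20 ± 0.03). The bone matrix and cytokine gene *Spp1*, osteopontin, had 526, 536, and 515 CPM in DKO and 107, 107, and 116 CPM in IR libraries (log2 -2.26 ± 0.05).

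Collagen genes rose. All 10 fibrillar collagen genes tested were higher in IR cells, 8 past the minimum fold, with a median log2 of 1.04 and a range of 0.64 to 2.03, and their summed level went from 8327 to 18419.5 CPM. *Col1a1*, which with *Col1a2* encodes type I collagen, rose 2.22-fold (log2 1.15 ± 0.04, adjusted p = 3.4e-19). *Col1a2* had 2429.5, 2453, and 2537 CPM in DKO and 5486, 5429, and 5119 CPM in IR libraries (log2 1.11 ± 0.03). *Col3a1* had 1046, 1068, and 1134 CPM in DKO and 2889, 2951, and 2808 CPM in IR libraries (log2 1.41 ± 0.04, adjusted p = 1.4e-26). *Col11a1*, a minor fibril component that is abundant in cartilage, had 198, 199, and 200.04 CPM in DKO and 819, 816, and 807 CPM in IR libraries (log2 2.03 ± 0.03, adjusted p = 2.4e-31). Of 12 type VI, fibril-associated, and other collagens 10 were higher and 1 lower, 5 and 1 past the minimum. *Col6a1* (from 842 to 1427 CPM, log2 0.76 ± 0.04), *Col6a2* (from 277 to 698 CPM, log2 1.34 ± 0.05), and *Col14a1* (from 0.339 to 2.29 CPM, log2 2.71 ± 0.33) rose. *Col23a1* (from 2.56 to 0.776 CPM, log2 -1.74 ± 0.26) fell. The basement membrane chains did not move together: *Col4a1* (from 299 to 133 CPM, log2 -1.17 ± 0.04) and *Col4a2* (from 253 to 133 CPM, log2 -0.92 ± 0.04) fell and *Col4a5* (from 251 to 430.2 CPM, log2 0.77 ± 0.03) rose. Of 28 genes that modify and crosslink collagen, 17 were higher and 4 lower, 2 and 2 past the minimum fold. The collagen chaperone gene *Serpinh1* rose from 378 to 626 CPM (log2 0.73 ± 0.04) and *Sparc* from 1405 to 2044 CPM (log2 0.54 ± 0.02). *Pcolce2*, an enhancer of procollagen cleavage, fell from 25.4 to 6.92 CPM (log2 -1.86 ± 0.08). *Lox*, the crosslinking oxidase, had means of 5257 and 5179.8 CPM (log2 -0.02 ± 0.03, adjusted p = 0.62).

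Of 24 proteoglycan and tendon-type matrix genes, 13 were higher and 7 lower, 9 and 3 past the minimum fold. *Postn*, which encodes periostin, had 52.1, 47.3, and 53.5 CPM in DKO and 322, 350.1, and 365 CPM in IR libraries (log2 2.76 ± 0.14, adjusted p = 7.2e-12). *Ogn*, osteoglycin, rose from 182 to 583 CPM (log2 1.68 ± 0.04), and *Lum*, lumican, from 0.0848 to 0.823 CPM (log2 2.98 ± 0.59). *Tnmd*, the tenomodulin gene of tendon, had 1 count over the DKO and 70 over the IR libraries, a ratio of 68.8 (exact 95% counting interval 11.9 to 2754). *Thbs2* and *Tnc*, matricellular glycoproteins, fell from 961 to 473 CPM (log2 -1.02 ± 0.04) and from 61.2 to 28.2 CPM (log2 -1.12 ± 0.07). Among 17 elastic and microfibril genes 7 rose and 9 fell, with *Fbn2* and *Ltbp2* at the 2 ends and *Fbln7* (from 0.247 to 1.72 CPM, log2 2.78 ± 0.31) and *Mfap5* (from 1.10 to 0.191 CPM, log2 -2.47 ± 0.48) next to them. Of 26 metalloproteinase and TIMP genes, 10 were higher and 9 lower, 3 and 5 past the minimum fold. *Adamts1* (from 317 to 752 CPM, log2 1.25 ± 0.04) and *Adamts5* (from 163 to 422 CPM, log2 1.37 ± 0.04), both of which cleave proteoglycans, and *Mmp16* (from 11.1 to 41.7 CPM, log2 1.89 ± 0.09) rose. The collagenase *Mmp13* (from 6.79 to 1.28 CPM, log2 -2.40 ± 0.19), *Mmp3* (from 9.02 to 4.27 CPM, log2 -1.07 ± 0.12), and *Adamts7* (from 94.3 to 36.1 CPM, log2 -1.39 ± 0.07) fell. Of 28 integrin and laminin genes, 10 were higher and 15 lower, 4 and 5 past the minimum fold. *Lama2*, the laminin chain of muscle and nerve basement membrane, had 9.89, 10.6, and 11.0 CPM in DKO and 56.0, 55.0, and 57.8 CPM in IR libraries (log2 2.42 ± 0.06). *Nid2* rose from 63.2 to 265 CPM (log2 2.07 ± 0.05) and the collagen-binding integrin *Itga10* from 13.4 to 38.6 CPM (log2 1.53 ± 0.08). *Agrn* fell from 187 to 84.2 CPM (log2 -1.15 ± 0.06).

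Most targets of ATF4, the transcription factor of the amino acid response, rose. Of 28 target and amino acid transporter genes tested 24 were higher and 0 lower, 14 past the minimum fold, with a median log2 of 0.73. *Trib3* had 7.12, 7.44, and 7.13 CPM in DKO and 40.9, 36.7, and 33.4 CPM in IR libraries (log2 2.36 ± 0.09, adjusted p = 1.9e-20). *Chac1*, which degrades glutathione, rose from 4.99 to 17.1 CPM (log2 1.77 ± 0.11), and *Pycr1*, of proline synthesis, from 8.52 to 26.5 CPM (log2 1.66 ± 0.08). *Psat1*, of serine synthesis, rose from 153 to 274 CPM (log2 0.84 ± 0.04), and *Atf5*, a related factor, from 55.1 to 150.3 CPM (log2 1.45 ± 0.06). The glutamine transporter *Slc38a2* had means of 629 and 612 CPM (log2 -0.04 ± 0.03, adjusted p = 0.28). Of 22 chaperone and unfolded protein response genes 5 were higher and 15 lower, 1 past the minimum, *Herpud1* (from 29.0 to 60.9 CPM, log2 1.07 ± 0.05), which was higher. *Hspa5*, the chaperone BiP, fell from 811 to 628 CPM (log2 -0.37 ± 0.05) and *Hsp90b1* from 1914 to 1509 CPM (log2 -0.34 ± 0.03).

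The C/EBP-ATF response element, which ATF4 binds, was searched as TGATGNAA on both strands of the same promoters. It was in 6 of the 23 ATF4 target and amino acid transporter genes with a promoter (26.1%). The share was 2.94% for all tested genes with a promoter, 6.38% for genes higher past the minimum fold, and 3.75% for lower ones. The stretches with a match are shown for *Chac1* and *Pycr1*, and for *Slc7a11*, the cystine transporter gene, which was chosen after its sequence was seen because it holds 2 matches. Capitals mark the motif on either strand.
Chac1, chr2:119351013-119351092, plus strand: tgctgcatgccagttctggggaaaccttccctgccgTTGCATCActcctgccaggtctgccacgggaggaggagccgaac
Pycr1, chr11:120643808-120643887, minus strand: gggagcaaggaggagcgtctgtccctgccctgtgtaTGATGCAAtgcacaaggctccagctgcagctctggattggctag
Slc7a11, chr3:50443617-50443696, minus strand: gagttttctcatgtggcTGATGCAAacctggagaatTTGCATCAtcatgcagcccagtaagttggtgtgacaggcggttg
In *Pycr1* the match begins 103 bases before the start, and in *Chac1* 193 bases before it.

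Genes of lipid synthesis rose by small amounts. Of 20 cholesterol synthesis enzymes 13 were higher and 1 lower, and of 22 genes of fatty acid synthesis and desaturation 15 were higher and 0 lower, none past the minimum fold in either list, with medians of 0.19 and 0.24. *Hmgcs1*, which commits acetyl units to sterol synthesis, rose from 667 to 876 CPM (log2 0.39 ± 0.04). The desaturases *Scd2*, *Fads1*, and *Fads2* rose by log2 0.47 ± 0.03, 0.50 ± 0.03, and 0.52 ± 0.03. *Fasn*, fatty acid synthase, rose by 0.15 ± 0.04. The sterol efflux genes *Abca1* and *Abcg1* fell from 2.44 to 0.440 CPM (log2 -2.48 ± 0.33) and from 0.523 to 0.161 CPM (log2 -1.66 ± 0.50). *Nr1h3*, the sterol sensor LXR-alpha that induces them, fell from 2.18 to 0.815 CPM (log2 -1.43 ± 0.26), and *Npc2* of lysosomal sterol export from 469 to 263 CPM (log2 -0.83 ± 0.04). Of 24 genes of branched-chain amino acid breakdown 19 were higher and 1 lower, *Pccb* the most (log2 0.75 ± 0.06). Of 32 glycolysis genes, 11 were higher and 16 lower, 2 and 1 past the minimum fold. *Aldoc* (from 11.9 to 34.4 CPM, log2 1.53 ± 0.07) rose. *Hk2*, a hexokinase that insulin induces, fell from 22 to 11.8 CPM (log2 -0.88 ± 0.09) and *Ldha* from 519 to 348 CPM (log2 -0.57 ± 0.08). Of 81 cytosolic ribosomal protein genes 22 were higher and 3 lower, and of 78 respiratory chain genes 27 and 9, with medians of 0.06 and 0.07. *Sod3*, the extracellular superoxide dismutase, fell from 68.5 to 13.5 CPM (log2 -2.34 ± 0.07), and *Cyp1b1*, a target of the aryl hydrocarbon receptor, from 842 to 603 CPM (log2 -0.48 ± 0.05).

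**Figure D3:**
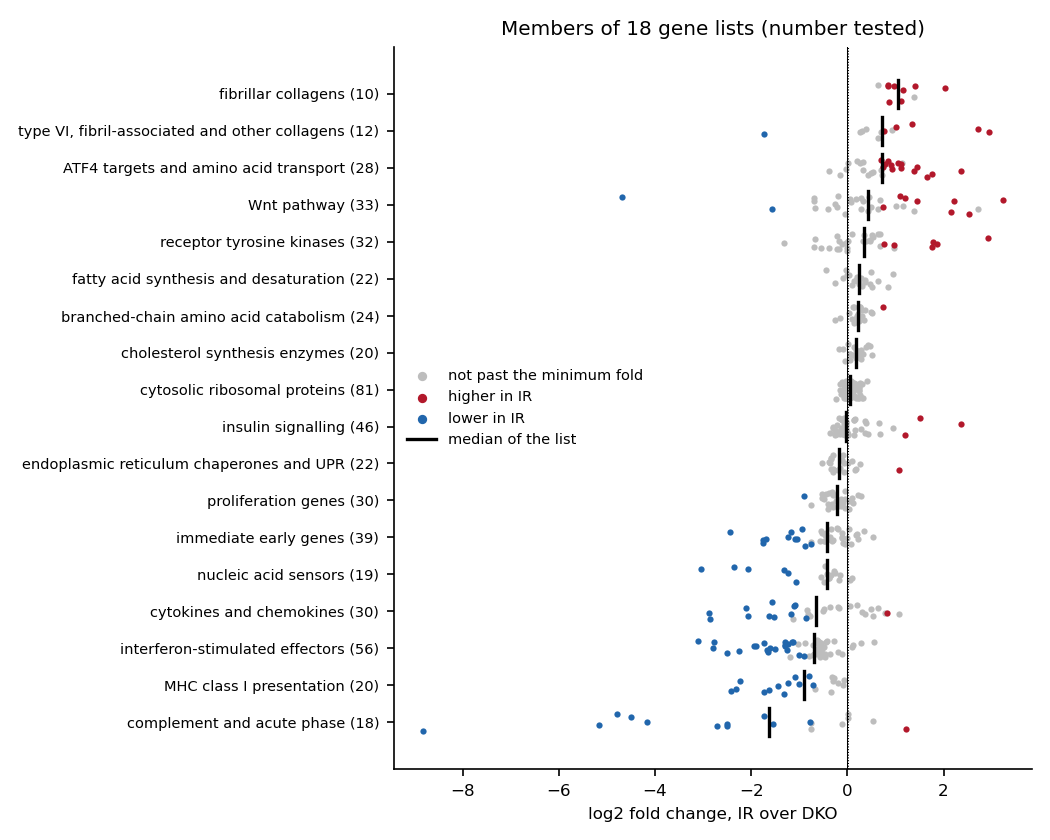
Log2 fold change of IR over DKO for each tested member of 18 gene lists, with the number tested after the name, a bar at the list median, and a dotted line at the median of all tested genes (0.01). Members past the 1.5-fold minimum are red (higher) or blue (lower). The medians of the collagen and ATF4 lists lie right of zero and those of the interferon, MHC, and complement lists left of it. No member of the lipid and ribosomal lists is past the minimum. Their values range from -0.17 to 0.51 (cholesterol), -0.44 to 0.95 (fatty acid), and -0.24 to 0.42 (ribosomal).

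Of 33 Wnt pathway genes, 18 were higher and 6 lower, 8 and 2 past the minimum fold. *Rspo2*, an R-spondin that amplifies Wnt signals, had 5, 4.94, and 5.41 CPM in DKO and 49.4, 45.5, and 50.6 CPM in IR libraries (log2 3.24 ± 0.13, adjusted p = 1.3e-15). Its receptor gene *Lgr5* rose from 2.72 to 15.9 CPM (log2 2.53 ± 0.12) and *Wnt16* from 0.592 to 2.86 CPM (log2 2.21 ± 0.24). *Wls*, which carries Wnt proteins to the surface, rose from 376 to 629.7 CPM (log2 0.74 ± 0.03). Among the lower genes were *Wnt10b* and *Sfrp1*. *Sfrp2*, of the same family as *Sfrp1*, went the other way and rose from 22.4 to 99.3 CPM (log2 2.15). *Dkk3* rose from 8.29 to 19.1 CPM (log2 1.21), and both passed the minimum fold. Of 40 TGF-beta and BMP genes, 13 were higher and 13 lower, 5 and 4 past the minimum fold. *Tgfb2* rose from 2.32 to 9.16 CPM (log2 1.98 ± 0.13). *Inhbb*, a chain of activin B, and *Bmp6* fell from 71.0 to 17.7 CPM (log2 -2.0 ± 0.11) and from 2.67 to 0.489 CPM (log2 -2.44 ± 0.27). In the Notch pathway the ligand *Jag1* (from 6.75 to 18.1 CPM, log2 1.42 ± 0.08) rose and the DNA-binding factor *Rbpj* (from 251 to 143 CPM, log2 -0.81 ± 0.04) fell. Of 42 guidance genes, 22 were higher and 12 lower, 8 and 7 past the minimum fold. *Sema3a* and *Sema3d*, secreted semaphorins, rose from 68.8 to 231 CPM (log2 1.75 ± 0.04) and from 0.940 to 12.8 CPM (log2 3.70 ± 0.19). *Unc5c*, a netrin receptor, rose from 23.7 to 135 CPM (log2 2.51 ± 0.06) while *Unc5b*, of the same family, fell from 227 to 82.8 CPM (log2 -1.45 ± 0.08). *Sema7a* and *Slit3* fell from 15.3 to 1.67 CPM (log2 -3.19 ± 0.16) and from 6.67 to 0.734 CPM (log2 -3.17 ± 0.19). *Ptn*, the growth factor pleiotrophin, had 205, 204, and 221 CPM in DKO and 728, 713, and 713 CPM in IR libraries (log2 1.77 ± 0.04). *Mme*, the membrane protease neprilysin, had 568, 539.6, and 587 CPM in DKO and 1060.0, 1129, and 1185 CPM in IR libraries (log2 0.99 ± 0.05).

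Of 12 imprinted genes tested 8 were higher and 1 lower, 6 and 1 past the minimum fold, with a median log2 of 1.06. *Peg10* rose from 23.7 to 67.1 CPM (log2 1.5 ± 0.05) and *Mest* from 0.611 to 3.12 CPM (log2 2.38 ± 0.22); *Grb10* and *Igf2r* are members too, and *Igf2* was the lower one. Of 28 HOX genes, 8 were higher and 5 lower, 1 and 1 past the minimum fold, *Hoxd3* higher (log2 1.68 ± 0.26) and *Hoxc13* lower (log2 -2.01 ± 0.25).

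To place these differences, the levels were compared with those of the other receptor lines in the basal state. These comparisons share the IR libraries. Over all tested genes IR was higher or lower than K1030R in 16.3% and 13.9% of genes, than ∆CT in 14.8% and 11.2%, and than JMO in 21.8% and 20.7% (no minimum fold). The interferon-stimulated effectors, lower in IR than in DKO cells, were higher in IR than in K1030R cells for 52 of 56 genes and lower for 0. They were higher than in ∆CT cells for 52 and lower for 0, and lower than in JMO cells for 48 and higher for 3. *Oas2* had means of 246 CPM in DKO and 36.4 CPM in IR cells, and K1030R, ∆CT, and JMO cells 9.55, 11.3, and 165 CPM. *H2-K1* had 199 CPM in DKO and 37.0 CPM in IR cells, and K1030R, ∆CT, and JMO cells 28.9, 25.8, and 245 CPM. For both genes IR lay above K1030R and ∆CT and below DKO and JMO, past the threshold in each comparison. The 20 MHC class I genes were higher in IR than in K1030R for 16 and lower for 0, higher than in ∆CT for 16 and lower for 0, and lower than in JMO for 19 and higher for 0. The 20 cholesterol enzymes were lower in IR than in K1030R for 19 and than in ∆CT for 18, and higher than in JMO for all 20. *Hmgcs1* had 667 CPM in DKO and 876 CPM in IR cells, and K1030R, ∆CT, and JMO cells 1099, 1086, and 545 CPM.

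*C3* had means of 519 CPM in DKO and 18.7 CPM in IR cells, and K1030R, ∆CT, and JMO cells 23.4, 21.1, and 812 CPM. *Ltbp2* had 49.0 CPM in DKO and 1.13 CPM in IR cells, and K1030R, ∆CT, and JMO cells 2.87, 1.73, and 118 CPM, and *Lcn2* 54.8 CPM in DKO and 1.51 CPM in IR cells, and K1030R, ∆CT, and JMO cells 3.70, 2.22, and 131 CPM. IR, K1030R, and ∆CT were low, and JMO had a higher mean than DKO. IR and K1030R did not differ in *C3* past the threshold (log2 of IR over K1030R -0.33 ± 0.15, adjusted p = 0.12). *Trib3* had 7.23 CPM in DKO and 37.0 CPM in IR cells, and K1030R, ∆CT, and JMO cells 34.3, 31.3, and 8.93 CPM. The difference between IR and K1030R did not pass the threshold here either (log2 0.11 ± 0.07, adjusted p = 0.26). *Postn* had 51.0 CPM in DKO and 346 CPM in IR cells, and K1030R, ∆CT, and JMO cells 92.9, 142, and 58.9 CPM (log2 of IR over K1030R 1.89 ± 0.13, adjusted p = 4.3e-09). *Col3a1* had 1083 CPM in DKO and 2883 CPM in IR cells, and K1030R, ∆CT, and JMO cells 1586, 1970.3, and 719.8 CPM. *Fbn2* had 0.852 CPM in DKO and 35.7 CPM in IR cells, and K1030R, ∆CT, and JMO cells 11.5, 31.1, and 6.33 CPM. Of the 10 fibrillar collagen genes tested, IR was higher than K1030R in 7, than ∆CT in 7, and than JMO in 9, and lower in 0 of each. *Egfr* had 28.5 CPM in DKO and 97.7 CPM in IR cells, and K1030R, ∆CT, and JMO cells 69.1, 87.4, and 44.0 CPM. *Igf1* had 3.47 CPM in DKO and 21.9 CPM in IR cells, and K1030R, ∆CT, and JMO cells 13.8, 12.2, and 6.47 CPM. *Ccnd1* had 48.4 CPM in DKO and 16 CPM in IR cells, and K1030R, ∆CT, and JMO cells 40.6, 32.8, and 34.3 CPM. IR was lower than each of these lines (log2 of IR over K1030R -1.34 ± 0.16, over ∆CT -1.04 ± 0.16, over JMO -1.10 ± 0.16, adjusted p from 3.2e-06 to 8.7e-05). The 30 proliferation genes were lower in IR than in K1030R for 24, than in ∆CT for 22, and than in JMO for 20. *Insr* itself had 23.8 CPM in DKO and 67.7 CPM in IR cells, and K1030R, ∆CT, and JMO cells 71.1, 78.4, and 71.0 CPM.

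**Figure D4:**
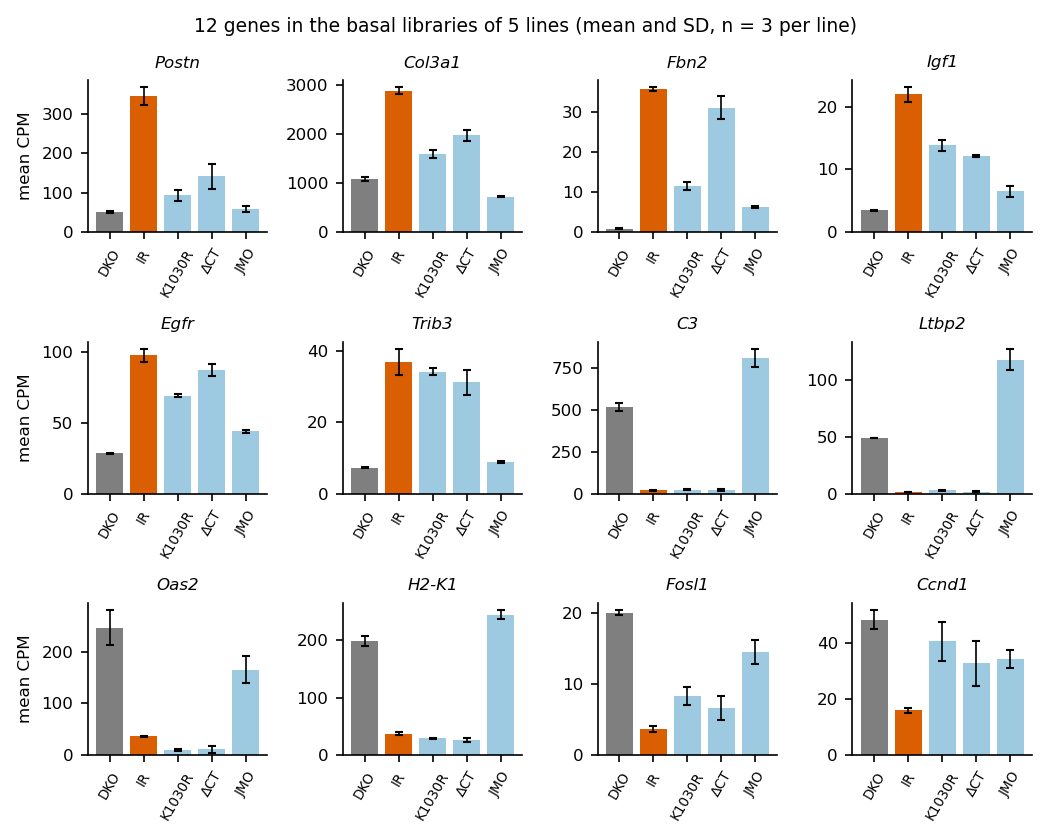
Mean CPM of 12 genes in the basal libraries of 5 lines, with error bars of 1 SD over 3 samples and axes that start at 0 (DKO grey, IR orange, the other receptor lines blue). *C3* and *Ltbp2* are near 0 in IR, K1030R, and ∆CT cells, *Postn* and *Col3a1* are highest in IR cells, and *Ccnd1* is lowest in IR cells.

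The median log2 fold change was 0.16 over 778 genes of chromosome 8, 0.13 over 523 of chromosome 19, -0.12 over 790 of chromosome 10, and -0.19 over 572 of chromosome 12. The medians of the other 15 autosomes lay between -0.04 and 0.05. The shifts ran along the whole of these chromosomes: in windows of 20 Mb the median was above 0 in all 7 windows of chromosome 8 (0.09 to 0.23). It was below 0 in all 6 of chromosome 12 (-0.26 to -0.07) and all 7 of chromosome 10 (-0.15 to -0.09), and above 0 in all 3 of chromosome 19 (0.05 to 0.17). With no minimum fold 49.0% of chromosome 12 genes were lower and 9.79% higher, and on chromosome 8 9.77% were lower and 44.7% higher. On the X chromosome 44 of 485 genes were higher and 7 lower past the minimum fold, with a median of 0.10.

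The shift was also taken per library, as the median log2 difference from the DKO mean over genes of at least 10 CPM. The 12 basal libraries of all 4 receptor lines lay between 0.14 and 0.16 on chromosome 8, 0.11 and 0.19 on chromosome 19, -0.17 and -0.12 on chromosome 10, and -0.25 and -0.18 on chromosome 12. The DKO libraries lay within 0.01 of 0. On the X chromosome the IR libraries lay between 0.08 and 0.09, the K1030R libraries at 0.08, the ∆CT libraries between 0.05 and 0.08, and the JMO libraries between -0.01 and 0.01. These medians are far below the 1.5-fold minimum, and the fold changes of single genes given here are not corrected for them. DNA was not analysed here, and what sets these chromosomes apart was not tested.

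**Figure D5:**
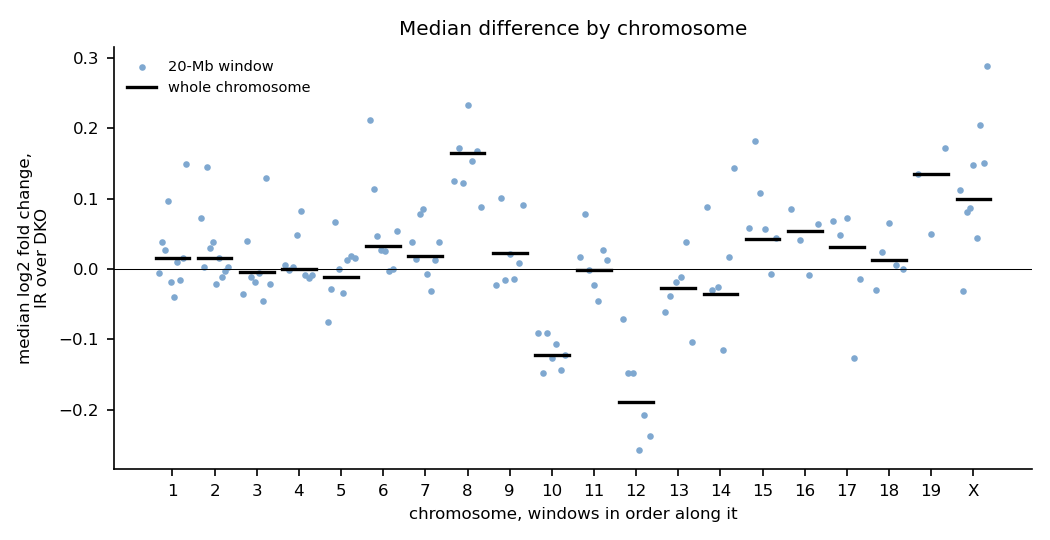
Median log2 fold change of IR over DKO for each autosome and the X chromosome (black bars) and for windows of 20 Mb with at least 20 tested genes (blue points, in order along the chromosome). Chromosomes 8 and 19 lie above zero and chromosomes 10 and 12 below it in each of their windows.

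The share of genes past the minimum fold was 7.12% below 1 CPM, 12.2% from 1 to 10 CPM, 4.95% from 10 to 100 CPM, and 5.12% above. At the edge of the filter, *Lbx2* had 4 libraries at or above 0.501 CPM and was tested, and *Wfdc8* had 4 at or above 0.493 CPM and was not. A mean under 0.5 CPM in both lines was found for 767 tested genes and in 1 line only for 828, of which 204 passed the minimum fold. Apart from *Trdn*, 2 genes past it had 0 counts in 1 line. *Gm7030* had 12, 17, and 14 counts in DKO and none in IR libraries (at least 15.0-fold lower), and as an MHC-like gene it may share reads with its relatives. *Spata5l1* had 6 counts in each DKO library and none in IR libraries (at least 6.26-fold lower) and was present in K1030R cells at 0.665 CPM. In the insulin-treated libraries of the same IR line its direction was reversed, with a log2 of 1.10 over DKO.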

How the data were processed

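Poly(A) RNA of serum-starved cells was sequenced as single-end stranded libraries. The deposited table holds estimated counts (expected counts) per gene, which the authors made by trimming with fastp, assigning reads to mouse transcripts with kallisto and summing transcripts to genes. Of the values, 79.9% are whole. They were rounded and analysed in R 4.3.3 with edgeR 4.0.16: the filter kept genes above 0.5 CPM in 4 or more of the 26 libraries, libraries were scaled by TMM, and 1 quasi-likelihood model was fitted to all 26 libraries in 9 groups, so that the groups share 1 estimate of the spread. Genes were called in 2 ways at an adjusted p (Benjamini-Hochberg over all 15402 genes) below 0.05, by edgeR's quasi-likelihood test and by its test against a minimum fold of 1.5 (glmTreat). The libraries hold 17228982 to 24694828 counts. Single-gene p-values are from the former. Replicates were separate samples of 1 line.

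Named were the targeted genes, the 10 called genes with the largest fold and the 8 with the largest CPM difference in each direction, genes with 0 counts in 1 line, the called genes that differed most from K1030R, and from each of 49 gene lists up to 4 members a direction and its 2 most expressed members, of which the text gives a selection. The comparison and the lists were chosen with earlier results of these data known. Lists are described by counts and medians without a test. Alternatives were RLE scaling, other filters, unrounded counts, limma 3.58.1, DESeq2 1.42.0, other thresholds, a fit of 6 libraries, insulin-treated IR libraries, the replicate block, and leaving out each library. Promoters came from RefSeq (GRCm38.p6) by gene symbol.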

Additional observations from a re-analysis of the deposited data

How the results depend on the processing

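The main counts were 554 higher and 507 lower genes. With DESeq2 they were 368 and 375, and with no minimum fold 3947 and 3718. The replicate block gave 554 and 512. Same-numbered libraries did not deviate together (correlations of -0.049 to -0.035, and -0.029 to 0.068 for the other pairs). The main fit used no pairing, and whether same-numbered libraries shared a batch was not tested. Leaving out 1 library at a time gave 496 to 542 higher and 467 to 481 lower genes. All other settings (RLE scaling, both filters, unrounded counts, limma, 6 libraries only, insulin-treated IR libraries, an adjusted p of 0.001) gave 373 to 601 higher and 351 to 567 lower genes, and higher genes made up 49.5% to 54.6% of calls throughout. With insulin-treated in place of basal IR libraries 7 named genes changed sign, to a log2 of 1.10 for *Spata5l1*, 0.20 for *Klf6*, -0.036 for *Timp2*, -0.014 for *Srebf1*, 0.086 for *Cd68*, 0.21 for *Plk2*, and 0.77 for *Ptgs2*. The cause was not tested. A CPM of 0.5 is about 10 counts, which limits the precision below it, and the 3 samples of a group came from 1 line, which limits every result to these lines.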

Other observations

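Several gene groups outside the account above had members that differed in both directions. Over all tested genes 25.6% were higher and 24.1% lower, and 6.89% passed the minimum fold. The share past it was 31.6% of the prostaglandin and retinoid genes, 17.4% of the p53 targets, and 9.4% of the antioxidant genes. Of 19 prostaglandin and retinoid genes, 6 were higher and 7 lower, 2 and 4 past the minimum fold. *Ptgs2*, the inducible cyclooxygenase, fell from 70.3 to 38.6 CPM (log2 -0.86 ± 0.08), *Ptger4*, a prostaglandin E2 receptor, from 3.10 to 1.08 CPM (log2 -1.48 ± 0.23), and *Aldh1a1*, which makes retinoic acid, from 44.4 to 26.7 CPM (log2 -0.74 ± 0.06), while *Ptgis*, prostacyclin synthase, rose from 26.7 to 39.5 CPM (log2 0.57 ± 0.07). Of 23 p53 targets, 8 were higher and 8 lower, 2 and 2 past the minimum fold, with *Perp* rising from 0.364 to 3.01 CPM (log2 3.05 ± 0.32) and *Pmaip1*, the pro-apoptotic Noxa gene, falling from 5.28 to 1.67 CPM (log2 -1.66 ± 0.15); the cells carry SV40 T-antigen, which binds p53. Of 32 antioxidant genes, 11 were higher and 10 lower, 2 and 1 past the minimum fold. The peroxiredoxin *Prdx2* rose from 28.1 to 49.7 CPM (log2 0.83 ± 0.06) and *Gclc*, of glutathione synthesis, fell from 101 to 65.1 CPM (log2 -0.63 ± 0.05).

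Among 23 contractile cytoskeleton genes, 4 were higher and 15 lower, 0 and 2 past the minimum fold, with *Mylk*, myosin light chain kinase, rising from 32.6 to 50.6 CPM (log2 0.63 ± 0.06). Of 6 cartilage and bone markers tested 5 were lower and 1 higher, *Spp1* and *Sox9* (from 28.3 to 18.3 CPM, log2 -0.64 ± 0.07) among the lower, and *Acan* and *Ibsp* had 0 counts. All 4 glial markers tested were higher, *Ncam1* from 143 to 191 CPM (log2 0.42 ± 0.03), and the defining glial factor *Sox10* had 0 counts.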
